A study of Mus musculus with 6 samples.

Results

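The 42 genes described here encode proteins of the cell division cycle. They were taken as a list of symbols that was chosen with earlier results of these data known. All 42 were found among the 27998 genes of the deposited matrices. Of these, 18 act around DNA replication and are called S phase members, 23 act in mitosis and are called mitosis members, and Stmn1, a microtubule-destabilising protein, was put in neither group. Transcripts were counted as unique molecular identifiers (UMIs) in single cells captured in droplets with a 5' end chemistry. The 6 libraries held CD4+ T cells of C57/B6 mice that were 8 to 12 weeks old, had an abdominal aortic aneurysm induced with elastase (the treatment labelled PPE) and were killed 14 days after surgery. Cells came from spleen in 3 libraries and from vascular tissue in the other 3, so every library was from treated mice and untreated mice were not analysed here. Aortas were cut up and treated with a dissociation enzyme mix for 1 h at 37 °C, spleens were ground without enzyme, and tissue of origin and digestion cannot be told apart. The labels number the replicates 1 to 3 per tissue without naming the animals behind them. The p-values below therefore measure the spread between libraries, which may be technical.

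A resting T cell holds the cycle back with inhibitors of cyclin-dependent kinases, and it enters division after it meets its antigen. E2F factors then switch on the genes for the replication machinery, such as the MCM helicase, the sliding clamp Pcna and the enzymes that make deoxynucleotides. Later the mitotic cyclins, the Aurora and Polo kinases, the kinetochore and the spindle motors are made, many of them from promoters with a short element called CHR (cell cycle genes homology region). Division of regulatory (Foxp3), interferon-gamma producing (Ifng) and follicle-homing (Cxcr5) CD4+ T cells is a known feature of inflamed tissue.

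Promoter sequences are shown first because E2F cores and the CHR are the elements tied to S phase and mitosis genes in textbooks. RefSeq promoter windows (GRCm38.p6) of 300 bases, 250 before and 50 after the annotated start, were matched for 34 of the 42 members and gave 36 windows. The E2F core was searched as TTCCCGC, its variants as TTGGCGC together with TTCGCGC, the CHR element as TTTGAA and the third box by its name CCAAT, each on both strands and with overlapping matches allowed. An E2F core lay in 9 of 17 S phase windows, in 3 of 19 mitosis windows and in 8.07% of all 32851 windows. A CHR lay in 2 of 17 S phase windows, in 14 of 19 mitosis windows and in 17.9% of all windows. A CCAAT box lay in 12 of 17 and 17 of 19 windows, against 37.4% of all. The 17 S phase windows belonged to 15 genes. Of these genes 7 had an E2F core, 2 a CHR and 10 a CCAAT box. A match is a description of the letters and not a bound site. The stretches below were picked because they hold a match, and they end before the RefSeq start and before any exon annotated in GENCODE vM21. Capitals mark E2F cores in the first 3 stretches and the CHR, in either orientation, in the other 4.
Mcm6, chr1:128359706-128359825, minus strand: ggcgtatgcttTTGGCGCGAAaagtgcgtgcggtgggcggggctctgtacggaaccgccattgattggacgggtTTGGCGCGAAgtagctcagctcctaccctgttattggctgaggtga
Rrm1, chr7:102441575-102441694, plus strand: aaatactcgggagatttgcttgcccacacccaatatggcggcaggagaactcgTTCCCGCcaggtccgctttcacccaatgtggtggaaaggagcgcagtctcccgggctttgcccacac
Uhrf1, chr17:56303217-56303320, plus strand: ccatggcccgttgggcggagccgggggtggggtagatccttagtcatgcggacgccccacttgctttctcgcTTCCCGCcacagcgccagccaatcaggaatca
Cdk1, chr10:69352939-69353032, minus strand: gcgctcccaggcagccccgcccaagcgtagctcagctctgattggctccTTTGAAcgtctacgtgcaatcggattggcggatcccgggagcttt
Cdc20, chr4:118437353-118437463, minus strand: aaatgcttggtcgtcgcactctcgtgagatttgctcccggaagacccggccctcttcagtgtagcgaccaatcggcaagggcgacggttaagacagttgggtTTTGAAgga
Top2a, chr11:99024190-99024309, minus strand: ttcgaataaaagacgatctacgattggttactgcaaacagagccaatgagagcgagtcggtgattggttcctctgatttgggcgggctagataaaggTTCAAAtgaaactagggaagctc
Kif11, chr19:37376262-37376381, plus strand: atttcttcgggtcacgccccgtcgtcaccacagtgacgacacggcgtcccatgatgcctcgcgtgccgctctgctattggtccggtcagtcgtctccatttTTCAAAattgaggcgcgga
In Mcm6 each run of capitals is a pair of overlapping matches, TTGGCGC on one strand and TTCGCGC on the other.

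After filters on genes, mitochondrial UMIs and doublets, 36051 cells with at least 1 Cd3e UMI remained of 41315 barcodes, 18812 from spleen and 17239 from vascular tissue. A library held between 2134 (spleen 1) and 8492 (spleen 3) such cells, with a median of 4208.5 to 5750.5 UMIs per cell. The same barcode sequence occurred in more than 1 library for 932 barcodes. Doublets were removed at a rate that rose with the number of barcodes in a library. They were 43 of 2312 barcodes, 704 of 9384 and 734 of 9581 in spleen libraries 1 to 3. In vascular libraries 1 to 3 they were 600 of 8662, 197 of 4962 and 329 of 6414. Whether this unequal removal bears on the values of single libraries was not tested. The 6 T cell markers summed to 3637 to 4212 CPM (UMIs of a gene scaled to a common library total) in spleen and to 4084 to 4517 in vascular libraries. All 4 plasma cell markers were seen, at a summed 3.63 to 161 CPM in spleen and 164 to 289 in vascular libraries, and all 6 plasmacytoid dendritic cell markers at 14.2 to 19.4 and 75.9 to 166 CPM. Erythroid markers ran from 28.8 to 262 CPM in spleen and from 0.400 to 298 in vascular libraries. The part of these other cells in the results was checked only by leaving out cells with 2 or more markers of another lineage.

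In all Cd3e+ cells 8 of the 18 S phase members and 4 of the 23 mitosis members were higher in vascular tissue, mostly by small amounts. UMIs were summed per library over these cells and tested with edgeR's quasi-likelihood test over 12219 genes, and a member is said to be called where its Benjamini-Hochberg adjusted p was under 0.05. Differences are log2 vascular minus spleen with the standard error (SE). Of the 42 members, 12 were called higher (28.6%) and 0 lower, against 22.9% of all tested genes called higher and 18.1% called lower. The share of members called higher was thus close to that of genes in general. Of the S phase members 8 of 18 were called and their median difference was 0.24, of the mitosis members 4 of 23 with a median of 0.27, and the median of all tested genes was 0.01. In such sums, fewer cycling cells and less RNA per cycling cell cannot be told apart. The 3 vascular libraries lay above the 3 spleen libraries for 15 members and below them for none, against 28.4% and 24.8% of tested genes.

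Among the genes that supply deoxynucleotides, Dut, the dUTPase that keeps uracil out of DNA (chromosome 2, 125247190 to 125258608), had 81.0, 87.1 and 83.1 CPM in spleen libraries 1 to 3 and 95.9, 97.0 and 107 CPM in vascular libraries 1 to 3. The groups did not overlap, and the difference was 0.26 ± 0.08 (SE; edgeR adjusted p = 0.031). Tyms, thymidylate synthase (chromosome 5, 30058202 to 30073617), had 20.8, 21.6 and 21.5 CPM in spleen and 30.5, 31.7 and 37.6 CPM in vascular tissue. It was the member with the lowest adjusted p, with a difference of 0.64 ± 0.10 and an edgeR adjusted p of 0.0012, and every vascular library was above every spleen library. Rrm1, the large subunit of ribonucleotide reductase, rose from 18.7 ± 1.84 to 27.3 ± 3.34 CPM (mean ± SD, 3 libraries each), a difference of 0.55 ± 0.11 (edgeR adjusted p = 0.0053). Its partner Rrm2 overlapped between the tissues at 32.8 ± 1.97 and 38.1 ± 8.86 CPM, as did thymidine kinase Tk1 at 14.2 ± 2.64 and 19.2 ± 4.74 CPM.

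Of the 6 MCM helicase subunits only Mcm6 was called. Mcm6 (chromosome 1, 128331590 to 128359664) had 51.6, 53.0 and 55.3 CPM in spleen and 61.5, 62.8 and 66.1 CPM in vascular tissue. The groups were apart by 0.25 ± 0.07 (edgeR adjusted p = 0.024). Mcm4 (chromosome 16, 15623897 to 15637400) had 48.3, 42.7 and 46.6 CPM against 50.6, 50.9 and 50.9 CPM, without overlap but with an edgeR adjusted p of 0.14. Pcna, the clamp that holds the polymerase on DNA (chromosome 2, 132249162 to 132253314), had 66.4, 60.7 and 59.1 CPM in spleen and 70.8, 72.2 and 69.1 CPM in vascular tissue. Its groups did not overlap either, and its difference of 0.19 ± 0.08 missed the threshold (edgeR adjusted p = 0.076). Mcm3 did not overlap either and was not called (0.23, edgeR adjusted p = 0.12). Mcm2, Mcm5 and Mcm7 overlapped, with differences of 0.04, 0.13 and 0.07.

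Cdc6 and Ccne2, which act as origins are licensed and fired, had the largest differences among the S phase members. Cdc6, which loads the MCM helicase, had 1.99, 1.93 and 2.48 CPM in spleen and 3.40, 3.50 and 5.46 CPM in vascular tissue, a difference of 0.94 ± 0.23 (edgeR adjusted p = 0.011). Ccne2, a cyclin of the entry into S phase, had 2.91, 1.86 and 1.02 CPM against 4.72, 4.61 and 3.49 CPM, a difference of 1.27 ± 0.32 (edgeR adjusted p = 0.014). The related Ccne1 went the other way without being called, from 6.88 ± 0.433 to 5.83 ± 1.31 CPM. Cdc45 and Gins2, parts of the active helicase, were called with differences of 0.54 and 0.59. Uhrf1, which carries DNA methylation through replication, had 9.52 ± 0.587 and 9.95 ± 1.18 CPM and overlapped.

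Among the mitosis members, Cenpa, the histone H3 variant of centromeres (chromosome 5, 30666777 to 30674830), had 72.2, 60.5 and 63.2 CPM in spleen and 87.9, 86.1 and 99.6 CPM in vascular tissue. All vascular libraries were above all spleen libraries, by 0.49 ± 0.10 (edgeR adjusted p = 0.0044). Top2a, the topoisomerase that untangles sister chromatids (chromosome 11, 98992943 to 99024189), had 48.8, 29.6 and 26.3 CPM against 52.7, 49.1 and 51.0 CPM. Its spleen library 1 lay next to the vascular values, and its difference of 0.56 ± 0.20 was only just called (edgeR adjusted p = 0.049). Bub1b, a kinase-like protein of the spindle checkpoint, and Kif23, a motor of cell separation, were called with differences of 0.66 and 0.41.

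The other abundant mitosis members did not differ beyond their spread. Ube2c, the ubiquitin-conjugating enzyme of the anaphase-promoting complex (chromosome 2, 164769898 to 164778822), had 49.7, 42.1 and 47.7 CPM in spleen and 44.8, 34.2 and 62.2 CPM in vascular tissue. Birc5, survivin, a part of the chromosomal passenger complex (chromosome 11, 117849251 to 117855743), had 40.0, 35.4 and 35.6 CPM against 29.8, 33.2 and 50.7 CPM. For both genes the highest and the lowest of the 6 values came from vascular libraries, so the groups overlapped. Mki67, the widely used proliferation marker that coats mitotic chromosomes (chromosome 7, 135689784 to 135716361), had 30.1, 14.6 and 12.3 CPM in spleen and 22.5, 21.0 and 24.2 CPM in vascular tissue, so spleen library 1 was the highest of all and the difference of 0.29 ± 0.28 was not called (edgeR adjusted p = 0.44). Stmn1 (chromosome 4, 134468320 to 134473843) had 76.1, 50.1 and 48.7 CPM against 51.4, 65.2 and 80.5 CPM and overlapped throughout. Plk1, Aurka, Aurkb and Ccna2 had differences of -0.17, -0.09, -0.02 and -0.01.

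**Figure D1:**
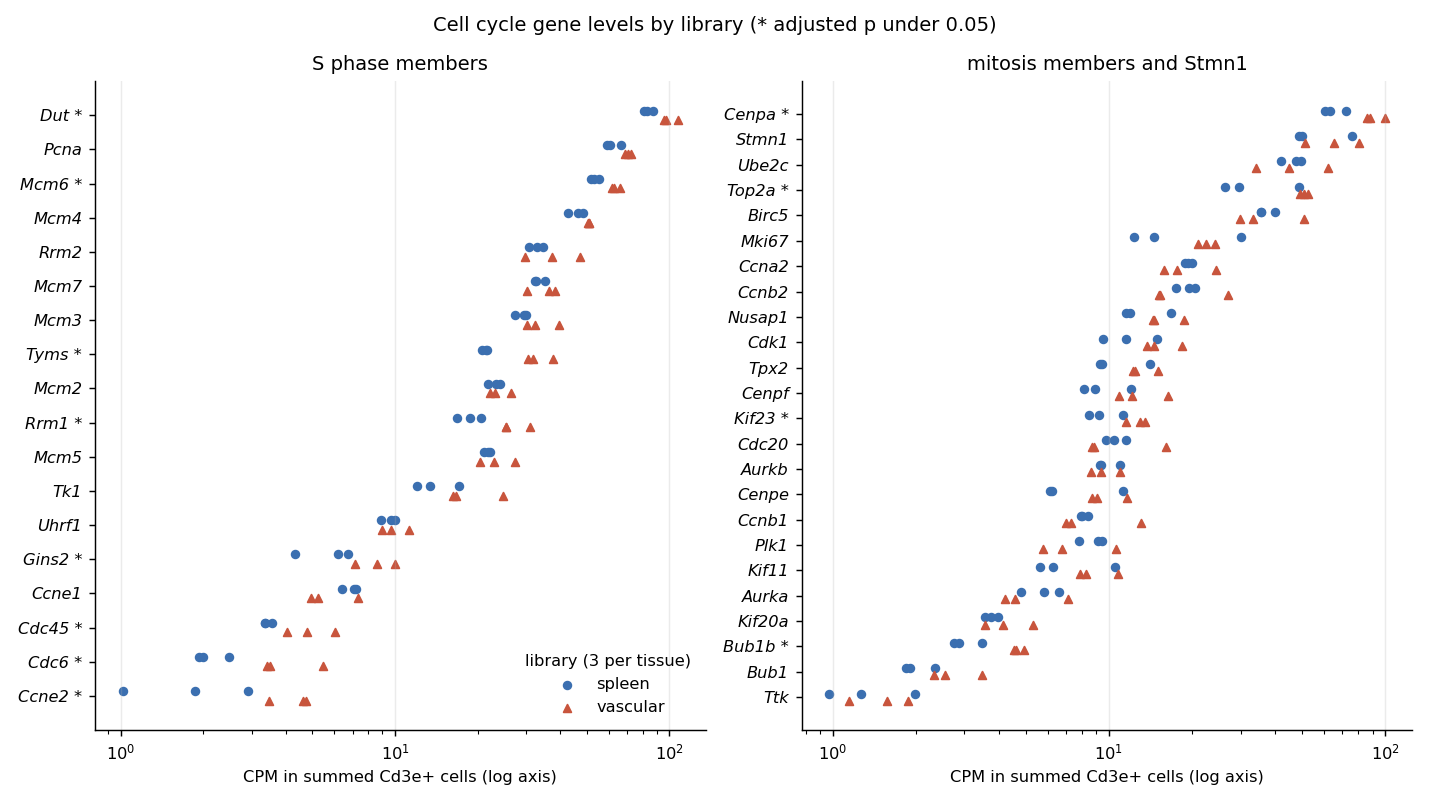
CPM of each member on a log axis in the summed Cd3e+ cells of each library, with circles for the 3 spleen and triangles for the 3 vascular libraries and an asterisk for an adjusted p under 0.05. Triangles lie to the right of all circles for 15 members, 11 of them S phase members, and spleen library 1 stands to the right of the other spleen libraries for Mki67 (30.1 against 14.6 and 12.3 CPM).

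Tyms, Rrm1, Ccne2, Cenpa and Bub1b were called in each of the 6 fits that left out 1 library. The number of called members fell to 6 without spleen library 2, where 1980 of 12450 genes were called higher. It fell to 7 without spleen library 3 (2215 of 12454 genes) or vascular library 2 (2216 of 12438). Without vascular library 3 it was 9 (2699 of 12489 genes called higher and 2045 lower). Ccne1, Plk1 and Ccnb2 were the ones called lower, and 14 of 23 mitosis members were above 0. Without spleen library 1 the number was 18 (3085 of 12473 genes called higher), and 11 of these were mitosis members. Without cells that held 2 or more markers of other lineages 21 members were called, all higher, 10 of 18 S phase and 11 of 23 mitosis members, with 23.2% of genes called higher.

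Mitosis and S phase members differed in the share of their UMIs that came from cells with several mitosis members. Each cell was thinned to 2000 UMIs so that cells were compared at 1 depth, which left out 67 shallower cells, 50 of them in spleen library 1 and 17 in vascular library 2. For each member, the share of its UMIs that came from cells with 3 or more other mitosis members was then taken. The median share was 70.2% over the 23 mitosis members and 16.8% over the 18 S phase members. Because the cells were chosen by the mitosis list, a higher share for its own members is partly built in. Shares from cells chosen by S phase members are not given. Among mitosis members it ran from 18.4% for Cenpa to 89.9% for Bub1, a kinase of the spindle checkpoint, and was 88.8% for Birc5 and 88.0% for cyclin A2 (Ccna2). Among S phase members it ran from 3.58% for Mcm4 to 65.2% for Tk1, with Pcna at 6.06%, Mcm6 at 6.66% and Dut at 10.2%. Most UMIs of Mcm4, Pcna, Mcm6 and Dut thus came from cells in which fewer than 3 mitosis members were seen. Tk1, Cdc6 (58.8%) and Rrm2 (58.1%) were the S phase members nearest to the mitosis pattern. Cdc6 rested on 35 spleen and 47 vascular UMIs. Its share was 100% in spleen library 1 and between 46.7% and 56.25% in the other libraries. Bub1 rested on 16 spleen and 29 vascular UMIs.

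The share was lower in vascular tissue for 21 of 23 mitosis members and for 11 of 18 S phase members. Nusap1, which bundles spindle microtubules, had 93.5% ± 3.4 of its UMIs in such cells in spleen and 57.6% ± 6.6 in vascular tissue (mean ± SD, 3 libraries each). Aurka, the kinase of spindle poles, had 66.3% ± 6.0 and 33.5% ± 5.4, and Mki67 63.3% ± 17 and 39.1% ± 6.6. Ccnb2, Ube2c and Birc5 were close in both tissues, at 81.0% and 82.1%, 82.0% and 81.2%, and 90.6% and 87.0%. No test was made of these shares.

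**Figure D2:**
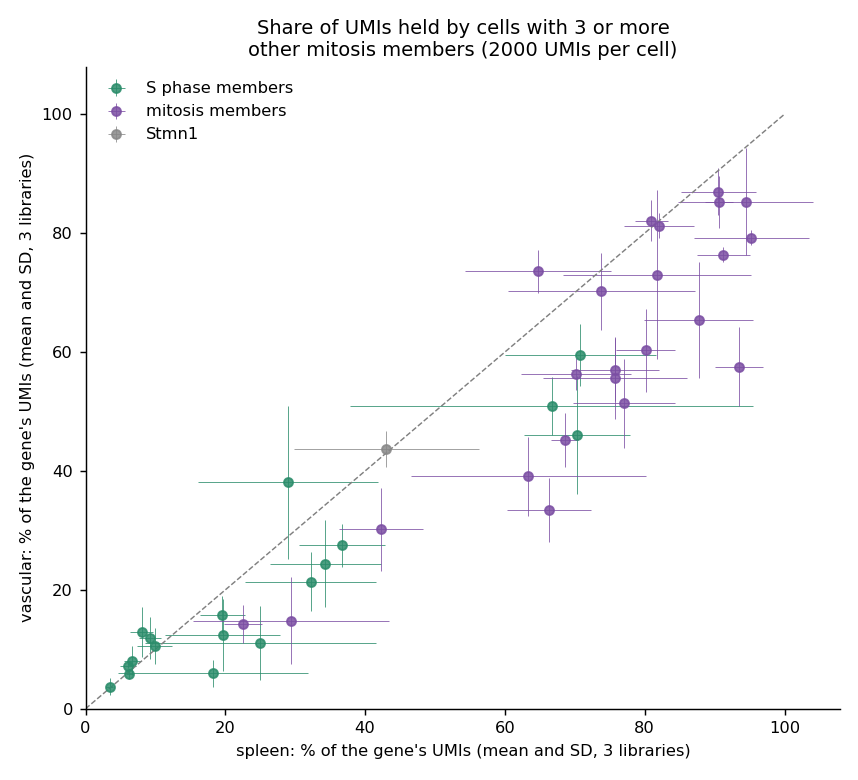
Share of each member's UMIs that came from cells with 3 or more other mitosis members, spleen on the x axis and vascular tissue on the y axis, as means with SD over 3 libraries at 2000 UMIs per cell. Most S phase members gather at the lower left, from 3.58% over both tissues for Mcm4, most mitosis members at the upper right, and most mitosis members lie under the dashed line of equal shares.

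Counted as cells, 621 of the 35984 Cd3e+ cells at 2000 UMIs held 3 or more mitosis members, 288 of 18762 in spleen and 333 of 17222 in vascular tissue. This cut takes a range and not a cell type. Right below it 150 spleen and 322 vascular cells held exactly 2, and at it 43 and 70 held exactly 3. The mean share of cells above the cut was 1.70% ± 0.437 in spleen and 1.956% ± 0.396 in vascular tissue (SD, 3 libraries each), with values of 2.21, 1.43 and 1.47% against 1.64, 1.83 and 2.40%, and the tissues overlapped. These cells were rich in RNA, with a median of 15169 UMIs before thinning in spleen and 14861 in vascular tissue, against 5122 and 4512 in cells with no mitosis member. Their median number of S phase members was 3 and 4, and 35.1% and 30.9% of them held 2 or more markers of other lineages, against 11.1% and 11.5% of the rest. Whether the extra markers come with depth or with remaining doublets was not tested.

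Cells with 3 or more S phase members were more frequent in vascular tissue. Their share was 3.31, 3.05 and 2.91% in spleen and 4.13, 4.25 and 4.37% in vascular libraries, without overlap (566 and 730 cells). Split further, cells with 3 or more S phase but fewer than 3 mitosis members made up 2.12% ± 0.0634 and 2.99% ± 0.165. Cells with 3 or more of both made up 0.972% ± 0.198 and 1.26% ± 0.284, and those with mitosis members alone 0.731% ± 0.241 and 0.694% ± 0.130, with overlap in both cases. With unthinned counts, where spleen cells were deeper, the difference in the share with 3 or more S phase members was -0.11 percentage points in place of 1.16.

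Cells with only 1 or 2 mitosis members were 11.9, 10.5 and 10.9% of cells in spleen and, without overlap, 21.2, 19.99 and 19.4% in vascular tissue. Members differed widely here. Among cells with no other mitosis member at 2000 UMIs, those with a Cenpa UMI made up 6.29% ± 0.581 in spleen and 10.8% ± 0.194 in vascular tissue, and those with a Top2a UMI 1.72% ± 0.510 and 3.81% ± 0.674. The shares were 0.0922% ± 0.0454 and 0.0678% ± 0.0495 for Ccnb2, 0.1004% ± 0.0387 and 0.0890% ± 0.0462 for Birc5 and 0.370% ± 0.0409 and 0.431% ± 0.151 for Ube2c. Of plasmacytoid dendritic cell-like cells, which had no Cd3e UMI and at least 3 of 6 markers of that type, 10 of 138 in spleen (7.25%) and 130 of 1112 in vascular tissue (11.7%) also held 1 or 2 mitosis members at the same depth. These shares give the level in 1 kind of cell outside the T lineage, and other kinds were not measured. Both T cell shares were above them, but the spleen level rests on 10 cells and the differences were not tested. When the 3-or-more cells were left out of the sums, a choice made after the data were seen, the 23 mitosis members summed to 62.3, 57.4 and 56.2 CPM in spleen and 117, 110 and 104 CPM in vascular tissue. The cells left out were chosen by the same genes, so these sums are a description. With those cells included, the same 23 genes summed to 366 ± 55.4 and 434 ± 73.1 CPM with overlap, and the S phase members to 469 ± 9.40 and 557 ± 47.4 CPM without overlap.

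**Figure D3:**
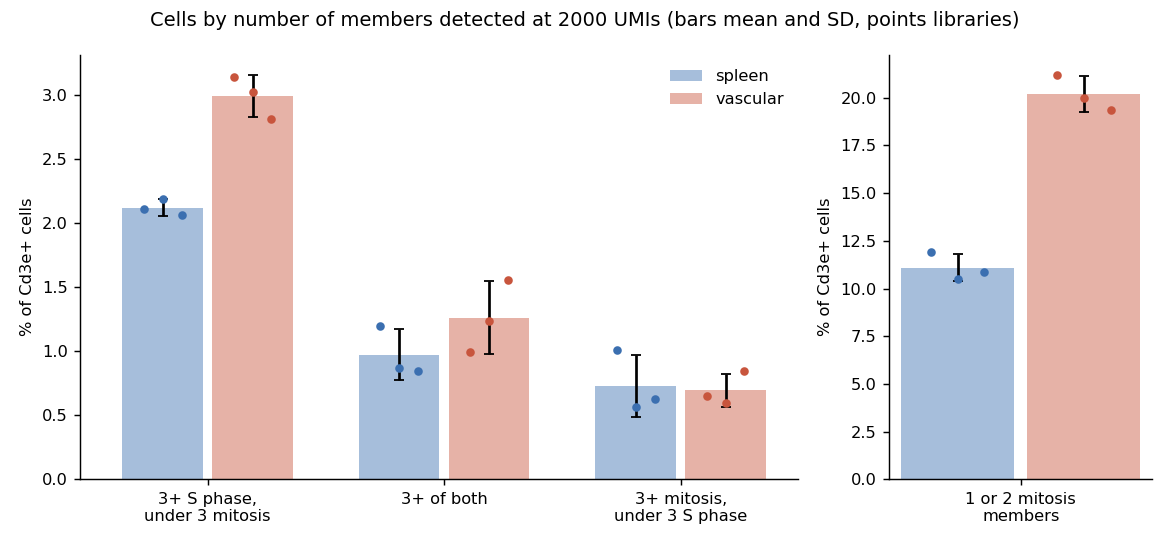
Percentage of Cd3e+ cells by the number of members seen at 2000 UMIs per cell, with bars for the mean, error bars for the SD and points for the 3 libraries of each tissue. Cells with 3 or more S phase members alone (2.12% and 2.99%) and cells with 1 or 2 mitosis members (right panel, own axis) do not overlap between tissues, and cells with 3 or more mitosis members do.

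The share of cells with a UMI was also read for 6 single genes at 2000 UMIs. Mki67 was seen in 1.82, 0.928 and 1.01% of spleen and in 2.04, 2.13 and 1.99% of vascular cells, and Top2a in 3.93, 2.37 and 2.08% and in 5.57, 4.85 and 4.57%. Tyms was seen in 2.21, 2.24 and 2.25% and in 3.28, 3.202 and 3.53%. For these 3 genes the tissues did not overlap and the exact two-sided permutation test gave p = 0.1, the smallest that 3 against 3 libraries allows (0.2 after Benjamini-Hochberg adjustment over 6 genes). Pcna (10.2% ± 1.04 and 10.99% ± 0.669), Mcm5 (2.71% ± 0.184 and 2.65% ± 0.141) and Stmn1 (4.29% ± 0.635 and 4.54% ± 0.738) overlapped, with exact permutation p of 0.3, 0.9 and 0.6. In the plasmacytoid dendritic cell-like cells Mki67 was seen in 0 of 138 spleen cells, which allows up to 2.17%, and in 0.270% of vascular cells, and Top2a in 0 of 138 and in 1.17%. Pcna was seen in 13.04% and 8.63% of those cells and Tyms in 2.90% and 1.26%. The shares of Pcna and Tyms in spleen T cells were not above this level, and those in vascular T cells were. The vascular level pools the 3 libraries. In vascular library 2 the Pcna share of T cells, 11.3%, was not above that of the plasmacytoid dendritic cell-like cells (29 of 246). The spleen level rests on 18 Pcna and 4 Tyms cells of 138, and the vascular one on 96 and 14 of 1112. With so few spleen cells no contrast between the tissues can be drawn from it, and none was tested. Mcm5 (1.45% and 0.450%) and Stmn1 (1.45% and 1.08%) were rarer in those cells than in T cells, with 2 spleen cells each. The median depth of those cells was 7317 to 8456 UMIs before thinning. Without thinning, Mki67 was seen in 2.94% and 4.52% and Top2a in 6.07% and 11.02% of T cells.

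Within cells that carried a Foxp3 UMI (1757 in spleen, 1586 in vascular tissue), the marker of regulatory T cells, all 42 members had a positive difference but few were called. The count was 7 of 42 higher (16.7%), near the 15.0% of 10121 tested genes. They were Mcm3, Mcm2, Mcm6, Dut, Tyms and Gins2 of the S phase members and Cenpf, a kinetochore protein, of the mitosis members. Mcm2 had 36.8, 31.7 and 27.6 CPM in spleen and 39.4, 43.7 and 49.1 CPM in vascular tissue, without overlap (0.49 ± 0.14, edgeR adjusted p = 0.025). Mcm6 had 101, 85.8 and 90.0 CPM against 106.2, 121 and 134 CPM, also without overlap (0.40 ± 0.11, edgeR adjusted p = 0.027). Spleen library 1, which had the smallest share of barcodes removed as doublets, was the highest spleen library for many members. Mki67 had 87.9, 37.8 and 22.0 CPM in the spleen libraries and 55.7, 66.3 and 61.6 CPM in the vascular ones, and Top2a 161, 61.3 and 49.3 against 112, 107 and 116 CPM. No single member was called in all 6 fits that left out 1 library. The count of called members was 26 without spleen library 1, where 1727 of 10408 genes were called higher. It was 2 without vascular library 2 (1248 of 10380 genes). It was 0 without spleen library 2 (1043 of 10240), spleen library 3 (1134 of 10244) or vascular library 3 (1328 of 10208). It was 22 with a gate of at least 2 Foxp3 UMIs (13.5% of genes called higher), 22 without cells holding markers of other lineages (16.6%) and 1 with doublets kept. In vascular tissue Foxp3+ cells were deeper than Foxp3-negative cells (library medians 5397 to 6028 against 4181 to 4806 UMIs). In spleen this held for library 1 (6116.5 against 5732.5). It did not hold for spleen library 2 (4800.5 against 5168.5) or 3 (4847 against 4990). Gated on the thinned counts, Mcm3, Mcm2 and Mcm6 had differences of -0.07, -0.30 and -0.02. Of 11 tested S phase members 6 were above 0 (median 0.01) and 2 were called higher. Of 7 mitosis members 7 were above 0 (median 1.07) and 2 were called higher, with 12.8% of genes. With all UMIs of those cells summed, the counts were 2 of 16 (median 0.37) and 7 of 22 (median 1.20), with 14.9% of genes.

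Within Ifng+ cells most mitosis members were lower in vascular tissue. Ifng encodes interferon gamma, and its cells were 7.40 to 9.18% of spleen and 19.1 to 37.7% of vascular Cd3e+ cells (1452 and 5116 cells). Of the 42 members 23 were called lower (54.8%) and 0 higher, against 12.6% of 10104 tested genes called lower. Of the mitosis members 17 of 23 were called and all 23 had a negative difference, with a median of -0.86. Of the S phase members 5 of 18 were called, and the median was -0.14.

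The kinases that drive mitosis and the anaphase-promoting complex had the lowest adjusted p. Plk1, Polo-like kinase (chromosome 7, 122159439 to 122169873), had 34.8, 30.5 and 28.7 CPM in spleen Ifng+ cells and 11.2, 8.51 and 13.1 CPM in vascular ones. The groups were far apart, and the difference was -1.50 ± 0.16 (edgeR adjusted p = 7.5e-05). Cdc20, the activator of the anaphase-promoting complex, had 28.2, 33.7 and 30.7 CPM against 13.3, 10.2 and 13.8 CPM (-1.32 ± 0.15, edgeR adjusted p = 7.6e-05). Aurka had 18.6, 17.6 and 18.1 CPM against 7.44, 5.77 and 6.48 CPM (-1.44 ± 0.16, edgeR adjusted p = 9.6e-05). No vascular library of these genes reached the lowest spleen library. Birc5 had 114, 121 and 105.6 CPM in spleen and 50.5, 38.5 and 62.3 CPM in vascular tissue (-1.18 ± 0.15, edgeR adjusted p = 0.00020), and Ube2c 158, 158 and 145 CPM against 76.3, 37.1 and 81.1 CPM (-1.24 ± 0.22, edgeR adjusted p = 0.0021).

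The mitotic cyclins and their kinase fell together, Ccna2 by 1.15, Ccnb1 by 1.23, Ccnb2 by 1.25 and Cdk1 by 0.84 on the log2 scale. So did the spindle and kinetochore proteins Tpx2 (-0.86), Kif20a (-1.10), Nusap1 (-0.75), Cenpf (-0.69) and Cenpa (-0.59) and the kinase Aurkb (-1.01). Mki67 had 74.4, 45.2 and 32.0 CPM against 32.4, 24.7 and 33.8 CPM and was not called (-0.64 ± 0.24, edgeR adjusted p = 0.065), nor was Top2a at 109, 88.0 and 59.7 CPM against 72.7, 59.9 and 73.0 CPM (-0.28 ± 0.17, edgeR adjusted p = 0.26). The S phase members called lower were Rrm2 (-0.75), Uhrf1 (-0.85), Ccne1 (-1.04), Mcm5 (-0.41) and Mcm6, and Stmn1 was called at -0.54. Pcna had 69.6, 87.3 and 83.8 CPM in spleen and 79.1, 86.1 and 82.2 CPM in vascular tissue, and Dut 109, 142 and 133 against 120, 121 and 136 CPM. These 2 genes and Tyms (34.8, 52.0 and 46.6 against 41.8, 41.2 and 53.3 CPM) overlapped between the tissues.

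Summed over members, the mitosis genes had 1134, 1060 and 907 CPM in spleen Ifng+ cells and 589, 425 and 651 CPM in vascular ones, while the S phase genes had 641, 846 and 777 against 641, 653 and 717 CPM. The ratio of S phase to mitosis UMIs was 0.740 ± 0.154 in spleen and 1.24 ± 0.255 in vascular tissue without overlap. In all Cd3e+ cells that ratio was 1.30 ± 0.165 and 1.30 ± 0.125. The calls held for 15 of the 23 members in each of the 6 fits without 1 library. Without spleen library 2, 15 were called, with 704 of 10504 genes called lower. The gate needs an Ifng UMI, and gated cells were deeper than Ifng-negative cells in spleen (library medians 5247.5 to 6323.5 against 4952 to 5716.5 UMIs) and, of the vascular libraries, in library 1 alone (4247 against 4187), where the range was 4247 to 4751 against 4187 to 4894. When cells were gated on the thinned counts, 3 of 9 tested mitosis and 0 of 11 tested S phase members were called lower (6.84% of genes), with medians of -0.84 and 0.06. With the same gate and all UMIs of those cells summed, 15 of 21 mitosis and 1 of 17 S phase members were called lower (10.0% of genes).

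Cxcr5 encodes the chemokine receptor of follicular T cells, and its gate held 1276 spleen but only 457 vascular cells. Of 39 members that passed the filter, edgeR called 0, with 2 at an unadjusted p under 0.05 (Mcm4 and Dut), and DESeq2 called 0, where edgeR called 2.84% of 8388 genes higher. Bub1, Ttk and Cdc6 did not pass the filter. The libraries spread widely: Mki67 had 75.1, 29.1 and 16.7 CPM in spleen and 47.9, 3.82 and 42.9 CPM in vascular tissue, and Ube2c 148, 64.3 and 69.1 against 91.2, 15.3 and 163 CPM. The 129 Mki67 UMIs of the vascular gate show how few molecules stand behind these values. The differences were above 0 for 36 of 39 members, and none was called. Without cells holding markers of other lineages 7 were called higher (4.58% of genes), and with no filter on low counts 4 (3.53%). The direction also depended on the choice. The S phase and mitosis medians were 0.43 and 0.35, but without vascular library 3 they were 0.12 and -0.20, with 8 of 21 mitosis members above 0. They were 0.01 and -0.05 with a gate of at least 2 Cxcr5 UMIs, and -0.11 and -0.66 over the 10 and 4 members tested when cells were gated on the thinned counts and all their UMIs summed.

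**Figure D4:**
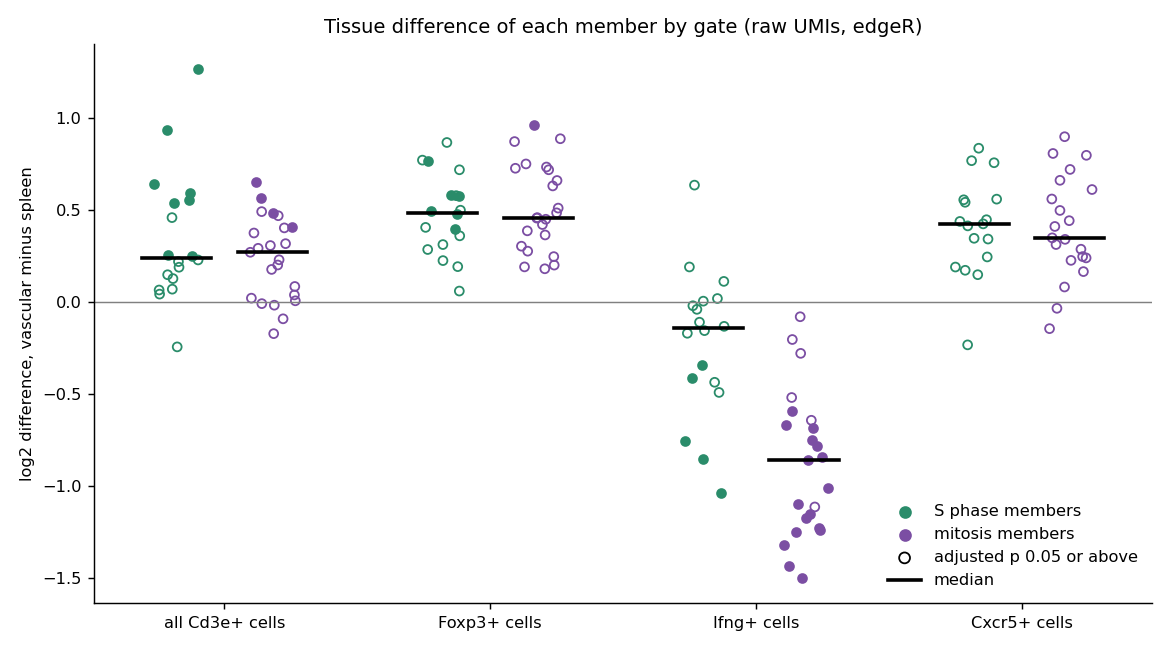
Log2 difference, vascular minus spleen, of each tested S phase and mitosis member in all Cd3e+ cells and in the 3 gates, filled where the adjusted p was under 0.05, with a black line at the median. Points lie mostly above 0 in the all-cell, Foxp3+ and Cxcr5+ columns (for Cxcr5 the mitosis median was -0.20 without vascular library 3), and in Ifng+ cells all 23 mitosis members lie below 0 with a median of -0.86 while the S phase median is -0.14.

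The gates were next compared with the cells of the same library that lacked the gate's transcript, at 2000 UMIs per cell. At that depth 1154 spleen and 991 vascular cells were Foxp3+, and 10 of 39 tested members (25.6%) were higher in them than in Foxp3-negative cells, against 13.2% of 9999 genes. Of these 9 were mitosis members (of 21 tested, median 0.70) and 1 was an S phase member (Mcm6, of 17 tested, median 0.18). Mki67 had 22.1, 12.7 and 8.02 CPM in Foxp3+ and 12.9, 5.36 and 5.77 CPM in Foxp3-negative spleen cells, and 30.1, 20.1 and 32.3 against 10.9, 11.2 and 9.62 CPM in vascular cells. It was higher in the gate in 6 of 6 libraries, by 1.00 ± 0.20 (edgeR adjusted p = 0.00092). Cenpa was higher in 6 of 6 libraries by 0.70 ± 0.10 (edgeR adjusted p = 2.3e-05), Birc5 in 6 of 6 by 0.86 ± 0.20 (edgeR adjusted p = 0.0029) and Mcm6 in 6 of 6 by 0.39 ± 0.10 (edgeR adjusted p = 0.0067). Those 4 were called in all 6 fits without 1 library. Top2a, Ube2c, Cenpf, Cenpe, Aurkb and Ttk were the others, and Ttk rested on 10 UMIs. The count was 5 without spleen library 2 (1186 of 9930 genes called higher) or vascular library 1 (1156 of 9830). It was 4 without vascular library 3 (1093 of 9832).

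In Ifng+ cells at 2000 UMIs (786 spleen and 3521 vascular cells) only Ccnb2, cyclin B2, was called against Ifng-negative cells, 1 of 39 members against 5.39% of 10371 genes. It had 39.6, 36.7 and 15.4 CPM in Ifng+ and 6.22, 6.30 and 6.61 CPM in negative spleen cells, and 5.80, 7.25 and 17.9 against 5.29, 5.82 and 9.41 CPM in vascular cells (1.06 ± 0.29, edgeR adjusted p = 0.022). The gap was wide in spleen libraries 1 and 2 and small in vascular libraries 1 and 2, with library 3 of each tissue in between. The call was lost without spleen library 1, spleen library 2 or vascular library 3. Without vascular library 1 or 2, 3 members were called, with 540 of 9792 and 433 of 10296 genes called higher. In Cxcr5+ cells (566 and 193) edgeR called 0 of 36 members against Cxcr5-negative cells, with 3 at an unadjusted p under 0.05 and 0 by DESeq2, and 7.79% of 9807 genes called in either direction. Plk1 and Ttk had no UMI in the Cxcr5 gate.

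The counts were larger with all UMIs of each cell and the gate also set on them, so that both the gate and the sums differed. Then 42, 36 and 34 members were higher in Foxp3+, Ifng+ and Cxcr5+ cells than in negative cells, where 22.4%, 11.1% and 8.69% of genes were called higher. The gated cells were deeper than the negative cells in all 6 libraries for Cxcr5, in 4 for Ifng and in 4 for Foxp3.

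**Figure D5:**
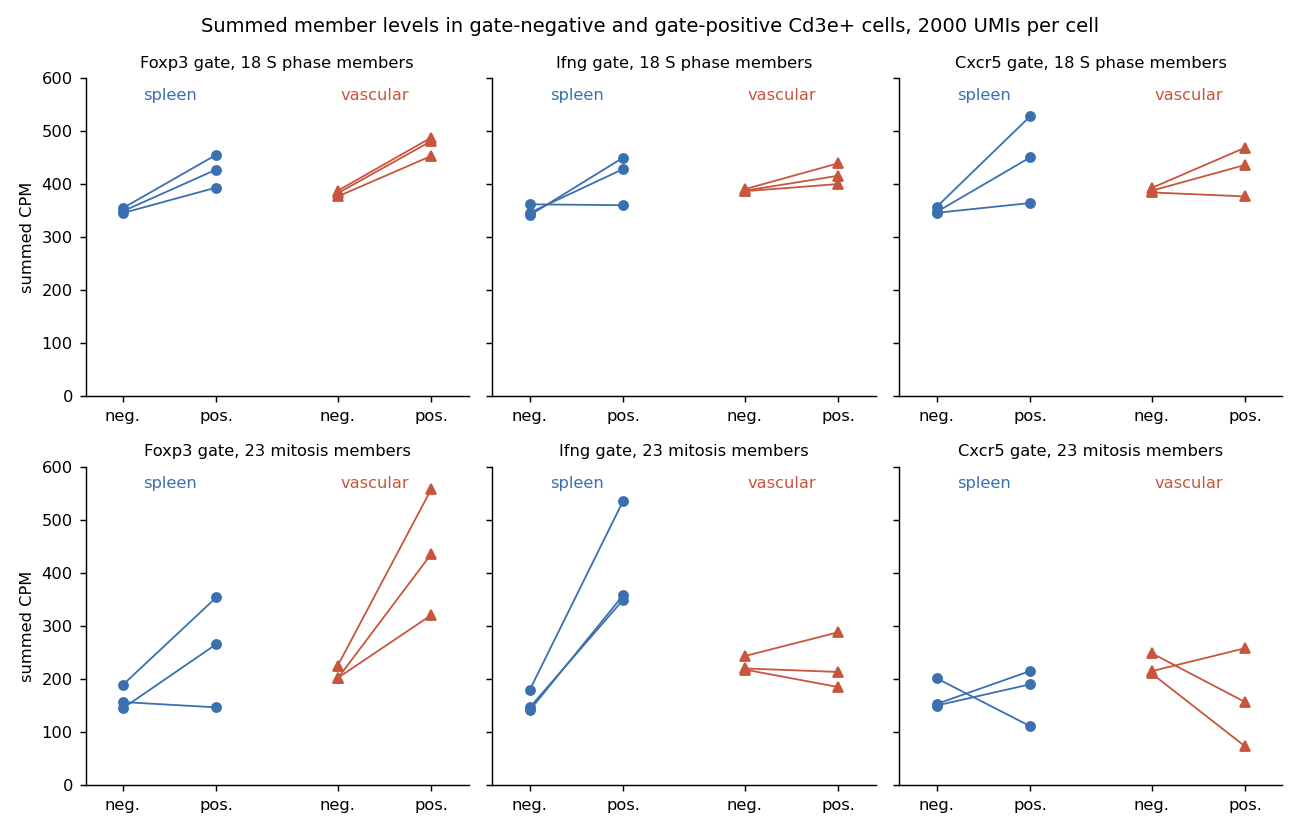
Summed CPM of the 18 S phase members (top) and the 23 mitosis members (bottom) in gate-negative and gate-positive Cd3e+ cells at 2000 UMIs per cell, with 1 line per library. The mitosis sum rises steeply with Ifng in the 3 spleen libraries, to between 350 and 537 CPM, and stays between 185 and 288 CPM in the vascular ones.

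Whether a gate's difference itself differed between tissues was tested as a gate by tissue term with the library as a block, again at 2000 UMIs. For Ifng, 8 of 39 members (20.5%) were called, all with a smaller difference in vascular tissue, against 3.0% of 10371 genes called in that direction. They were 7 of 21 mitosis members and 1 of 17 S phase members (Rrm2). Cenpa had 119, 70.6 and 77.0 CPM in Ifng+ and 46.0, 41.3 and 42.6 CPM in Ifng-negative spleen cells, and 56.1, 50.7 and 70.1 against 78.6, 80.6 and 80.5 CPM in vascular cells. It was thus higher with Ifng in all 3 spleen libraries and lower in all 3 vascular ones, and the term was -1.33 ± 0.18 (edgeR adjusted p = 1.6e-07). Birc5 had 48.4, 40.9 and 35.0 against 12.4, 10.4 and 10.96 CPM in spleen and 8.56, 6.04 and 23.6 against 10.2, 13.1 and 18.3 CPM in vascular tissue, with a term of -1.98 ± 0.30 (edgeR adjusted p = 3.9e-06). Ube2c had 52.8, 46.6 and 46.2 against 13.7, 15.0 and 16.5 CPM in spleen and 16.3, 11.5 and 26.5 against 16.3, 11.6 and 19.96 CPM in vascular tissue (-1.44 ± 0.25, edgeR adjusted p = 3.7e-05). Birc5 and Ube2c were higher with Ifng in all 3 spleen libraries, and of the vascular ones in library 3 alone.

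Ccnb2 (-1.57), Top2a (-1.03), Cenpf (-1.80), Mki67 (-1.19) and Rrm2 (-1.18) made up the rest of the 8. Cenpa, Birc5 and Ube2c were called in all 6 fits without 1 library. Without spleen library 2 or 3, 5 members were called, with 178 of 10218 and 178 of 10213 genes called lower. As sums at this depth, the mitosis members had 537, 358 and 350 CPM in Ifng+ and 180, 141 and 146 CPM in Ifng-negative spleen cells, and 213, 185 and 288 against 220, 218 and 243 CPM in vascular cells. The S phase members had 413 ± 46.9 and 350 ± 10.8 CPM in spleen and 419 ± 19.7 and 389 ± 1.98 CPM in vascular tissue. Counted as cells, 4.72% ± 0.909 of Ifng+ spleen cells and 2.03% ± 0.870 of Ifng+ vascular cells held 3 or more mitosis members without overlap. In spleen libraries 1 to 3 these shares rest on only 6, 13 and 16 cells, in the vascular ones on 28, 14 and 22. Of Ifng-negative cells 1.56% ± 0.400 and 1.97% ± 0.309 held as many, with overlap.

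For Foxp3 the term was called for 1 of 39 members, Ube2c, with 1.46% of genes called in that direction. It had 26.6, 25.4 and 13.03 CPM in Foxp3+ and 15.1, 16.0 and 18.2 CPM in negative spleen cells, and 47.8, 12.8 and 60.5 against 14.3, 11.4 and 17.8 CPM in vascular cells (1.26 ± 0.32, edgeR adjusted p = 0.012). The call was lost without spleen library 3, vascular library 1 or vascular library 3. In all, 4 members were called without spleen library 2 (68 of 9930 genes called higher) and 2 without vascular library 2 (127 of 9895). There were 2 without vascular library 3 (Rrm2 and Stmn1, 184 of 9832) and 0 without spleen library 3 or vascular library 1. For Cxcr5 edgeR called 0 of 36, with 4 at an unadjusted p under 0.05 and 0 by DESeq2, and 2.97% of genes were called in either direction.

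The wider pathway in all Cd3e+ cells was read from 5 further lists, also chosen with earlier results of these data known. They are set beside the 22.9% of all tested genes called higher and the 18.1% called lower. Of 29 other replication genes 13 were called higher in vascular tissue and 0 lower (median 0.29). Hells, a chromatin remodeller of replicating DNA, had 15.7, 15.4 and 13.9 CPM in spleen and 30.8, 36.4 and 37.2 CPM in vascular tissue (1.21 ± 0.10, edgeR adjusted p = 6.1e-05). Slbp, which binds histone mRNA, rose by 0.81, Orc6, of the origin recognition complex, by 0.69, and Pola1, the catalytic subunit of polymerase alpha, by 1.11. Of 25 other mitosis genes 7 were called higher (28.0%, near the share of all genes) and 0 lower (median 0.29). Cks2, a small partner of Cdk1, had 61.4, 52.7 and 52.8 CPM against 148, 126 and 125 CPM (1.26 ± 0.10, edgeR adjusted p = 4.9e-05), and Hmgb2 rose by 0.61, Prc1 by 0.65 and Racgap1 by 0.42. Of 18 genes for G1 cyclins, their kinases, E2F factors and regulators 4 were called higher and 4 lower (22.2% each way, near the shares of all genes, with a median of 0.06). Cdk6 had 11.9, 9.65 and 7.90 CPM against 26.5, 26.2 and 24.98 CPM, while Cdk4, the kinase of the same step, had 109, 122 and 122 against 85.1, 79.0 and 89.4 CPM. Both passed the test, at 1.42 ± 0.14 (edgeR adjusted p = 0.00013) and -0.48 ± 0.09 (edgeR adjusted p = 0.0027). Ccnd1 rose by 1.74 and Rbl2, a relative of the retinoblastoma protein, by 0.68.

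Of 7 inhibitors of the cyclin-dependent kinases 5 were called higher and 1 lower, with a median of 0.89, where 22.9% and 18.1% of all tested genes were. Cdkn1a, the inhibitor p21 that p53 induces, had 11.5, 6.53 and 6.21 CPM in spleen and 204, 101 and 117 CPM in vascular tissue. No spleen library came near a vascular one, and the difference was 4.19 ± 0.33 (edgeR adjusted p = 4.7e-05). Cdkn2a had 0.639, 0.487 and 0.296 CPM against 3.21, 2.02 and 3.33 CPM (2.72 ± 0.32, edgeR adjusted p = 0.00034) and Cdkn2b 0.142, 0.420 and 0.551 against 3.09, 2.06 and 2.43 CPM (2.57 ± 0.33, edgeR adjusted p = 0.00049). Cdkn2c rose by 0.40 and Cdkn1c by 0.89. Cdkn2d went down, from 101, 111 and 115 to 66.8, 66.3 and 77.0 CPM (-0.64 ± 0.09, edgeR adjusted p = 0.00089). Cdkn1b, the inhibitor p27 of resting T cells, had 166, 111 and 105 CPM against 171, 165 and 159 CPM, with spleen library 1 among the vascular values, and was not called (edgeR adjusted p = 0.090).

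Of 12 genes tied to T cell quiescence 4 were called higher and 4 lower (median -0.15), beside 22.9% and 18.1% of all tested genes. Btg2, an antiproliferative gene, had 200, 212 and 198 CPM in spleen and 797, 632 and 607 CPM in vascular tissue (1.74 ± 0.12, edgeR adjusted p = 2.4e-05), Tob1 rose by 1.15 and Klf6 by 0.73, and the transcription factor Foxp1 fell by 0.69. Enzyme treatment was given to the aortas alone, so for Cdkn1a, Btg2 and Klf6, as for every gene here, tissue and treatment cannot be told apart.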

How the data were processed

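The deposited values were gene-by-cell UMI counts, which the authors made with Cell Ranger 2.2.0 and STAR 2.5.1b on mm10, per the submitters' processing notes, which also name FastQC 0.11.8 and Seurat. No further filter by the authors is given in the sources used here. Cells with under 300 genes or over 10% mitochondrial UMIs were left out, and doublets were marked in each library by simulated neighbours (50 neighbours, 2000 variable genes, 30 components) at 0.8% per 1000 barcodes and removed. T cells were cells with at least 1 Cd3e UMI, and gated cells held at least 1 UMI of Foxp3, Ifng or Cxcr5. Counts were summed per library and tested with edgeR 4.0.16 (TMM, filterByExpr, quasi-likelihood, Benjamini-Hochberg over all tested genes at 0.05) in R 4.3.3, with DESeq2 1.42.0 as an alternative. Each comparison was fitted on its own 6 libraries or their gated and negative sums. Comparisons of gated with negative cells, and all shares of cells, used cells thinned to 2000 UMIs. The scripts were tested on simulated counts, and Python 3.11.15, numpy 2.4.6, scipy 1.17.1 and scikit-learn 1.9.0 were used.

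The members and all lists were chosen with earlier results of these data known. Named with values were the 4 S phase and 4 mitosis members with the highest mean CPM, Stmn1, called members by adjusted p up to 20 a comparison, up to 4 called genes of each further list by adjusted p, and the CDK inhibitors. Other members named without a call were chosen after their values were seen. Total UMIs per library ran from 14836442 to 55483411, and the limit for a share of 0 is 3 cells of the total, which covers counting error only. Pairs of libraries of 1 tissue differed beyond sampling noise (chi-square per degree of freedom 13.85 to 45.25), so none was counted as a copy. Alternatives were other normalization and filters, no doublet removal, other gates and depths, the replicate number as a block, leaving out each library and leaving out cells with 2 or more of 74 markers of 15 other cell types. Leaving out cells with 3 or more mitosis members, and summing all UMIs of cells gated at 2000 UMIs, were added after seeing the data.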

Additional observations from a re-analysis of the deposited data

Results flagged for a closer look

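For 8 members the difference between Ifng+ and Ifng-negative cells itself differed between spleen and vascular tissue by the gate by tissue term of edgeR's quasi-likelihood test. On the log2 scale the term, vascular minus spleen, was -1.33 for Cenpa, -1.98 for Birc5, -1.44 for Ube2c, -1.57 for Ccnb2, -1.03 for Top2a, -1.18 for Rrm2, -1.80 for Cenpf and -1.19 for Mki67. Cenpf rested on 20 UMIs in the spleen gate and 34 in the vascular gate. For Foxp3 the same term differed for Ube2c alone of 39 tested members, at 1.26, and DESeq2 called 0 members there.

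Cells without a Cd3e UMI, of which the plasmacytoid dendritic cell-like ones alone were described above, also held mitosis members. Of 2609 such cells 44 (1.69%) held 3 or more at 2000 UMIs, with 40 of 943 in spleen (4.24%) and 4 of 1666 in vascular tissue (0.240%). No background level was measured for these cells, and the difference between the tissues was not tested.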

How the results depend on the processing

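Deviations of same-numbered spleen and vascular libraries correlated weakly, at 0.0302, 0.0167 and 0.1112. Those of differently numbered libraries correlated at -0.1017 to 0.0591. Such correlations cannot show whether libraries of equal number share an animal. With the replicate number as a block 12, 6, 25 and 0 members were called between tissues in all, Foxp3+, Ifng+ and Cxcr5+ cells, against 12, 7, 23 and 0 without it, and Ube2c in all cells reversed from 0.02 to -0.018.

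The cause of each of the following changes was not tested. Brackets give the genes called higher, unless said to be lower, of all genes tested in the same fit. Without cells holding 2 or more markers of other lineages 21 members were called in all cells (2731 of 11777). There were 22 in Foxp3+ (1562 of 9423) and 7 in Cxcr5+ cells (338 of 7379). Against negative cells 5 were called for Foxp3 (1242 of 9782) and 5 for Ifng (504 of 10088). The Foxp3 term was called for 2 (122 of 9782). With no filter on low counts 23 were called in Foxp3+ (1800 of 15566) and 4 in Cxcr5+ cells (511 of 14484). Against negative cells 4 were called for Ifng (546 of 16511) and 1, lower, for Cxcr5 (519 of 16511 lower). The Foxp3 term was then called for 3 (143 of 16511). With doublets kept 1 was called in Foxp3+ cells (1629 of 10407) and 2 for the Foxp3 term (167 of 9964). A Foxp3 gate of 2 UMIs gave 22 (1293 of 9547). Against negative cells DESeq2 called 6 for Foxp3 (1195 of 9999) and 2 for Ifng (490 of 10371). For the terms it called 0 for Foxp3 and 5 for Ifng (210 of 10371 lower). Without TMM edgeR called 16 for Foxp3 against negative cells (2454 of 9999). It called 3 for Ifng (788 of 10371) and 2 for Cxcr5 (686 of 9807) against negative cells. In the Foxp3 fit without TMM the median over all genes moved as well, from -0.03 to 0.17. With the gate and the sums both on all UMIs the gates gave 42, 36 and 34 (22.4%, 11.1% and 8.69% of genes). The Foxp3 term then gave 3 (365 of 11540) and the Ifng term 30 (728 of 11812 lower). Gated at 2000 UMIs, Ifng+ cells gave 3 (489 of 7146 lower), where fewer genes were tested. With that gating Mcm3, Mcm2 and Mcm6 in Foxp3+ cells reversed to -0.070, -0.30 and -0.021. Without cells holding 3 or more mitosis members, removed by the same genes that were counted, 19 were called. Of all 11994 genes tested in that fit 2951 were called higher and 2320 lower. Birc5 and Stmn1 reversed to -0.10 and -0.052, and the difference in the ratio of S phase to mitosis UMIs went from near 0 to -2.17.

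In percentage points, vascular minus spleen, the Mcm5 share reversed to 0.0155 with doublets kept and the Stmn1 share to -0.553 without thinning. The share with 3 or more S phase members went from 1.16 to 0.691 with 4 or more, 0.489 at 1000 UMIs and -0.107 without thinning, that with 3 or more mitosis members from 0.253 to 1.31 with 2 or more and 1.09 without thinning, and that with both to 0.761 without thinning.

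Leaving out 1 library gave 6 to 18 called members in all cells, 0 to 26 in Foxp3+, 15 to 24 in Ifng+ and 0 to 1 in Cxcr5+ cells. Against negative cells it gave 4 to 15 for Foxp3 and 0 to 3 for Ifng, and for the terms 0 to 4 for Foxp3 and 5 to 8 for Ifng. Counts over all genes moved too. Between tissues, genes called higher ran from 1980 to 3085 in all cells and from 1043 to 1727 in Foxp3+ cells. Genes called lower in Ifng+ cells ran from 704 to 1529. Ube2c ran from -0.23 to 0.20, Birc5 from -0.23 to 0.19, the Mcm5 share from -0.163 to 0.00597 and the Stmn1 share from -0.125 to 0.612. Of the values for single genes under all alternatives, 681 kept direction and side of the threshold, 157 were weaker, 2 stronger and 10 reversed. The main results, among them the counts of called members, changed more often. Of their values 139 stayed the same, 60 moved and 5 reversed.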
